A study of Homo sapiens with 8 samples.

Results

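The genes described here are 10 feedback inhibitors and transcriptional outputs of the RAS-ERK pathway: the phosphatase genes DUSP4, DUSP5 and DUSP6, the Sprouty genes SPRY1, SPRY2 and SPRY4, the Sprouty-related genes SPRED1 and SPRED2, and the ETS factor genes ETV4 and ETV5. They were chosen by symbol from a table of 18164 genes, and all 10 were found and were among the 13358 genes with at least 1 TPM (the deposited unit, an abundance scaled for transcript length and library) in at least 4 of the 8 tumors. The tumors grew from HCC1937, an established human line of triple-negative breast cancer, after 1000000 cells had been placed in the inguinal mammary fat pad of NCG mice (NOD/ShiLtJGpt-Prkdcem26Cd52Il2rgem26Cd22/Gpt), an immunodeficient strain. When tumors had reached 100 to 150 mm3, mice were assigned to NMN (nicotinamide mononucleotide, an NAD+ precursor, 500 mg/kg/day; 4 tumors) or to Vehicle (4 tumors). Age, route, duration and the vehicle's composition are not given in the sources used here, and the labels do not tie tumors to separate mice, so the p-values describe the spread among these 8 samples, which may be technical in part.

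Growth factor receptors activate RAS, which passes the signal through the kinases RAF, MEK and ERK. Active ERK induces genes that then damp the pathway: dual-specificity phosphatases remove the activating phosphates from ERK, Sprouty proteins interfere with signaling between receptors and RAF, and SPRED proteins bring neurofibromin (NF1), which switches RAS off, to the membrane. ETV4 and ETV5 are PEA3-type ETS factors whose genes are repressed by Capicua (CIC) until ERK signaling lifts that repression. Because they follow ERK activity in many epithelial cancers, transcripts of these genes are used as a readout of pathway output, and the comparison addresses whether that readout differed between tumors of NMN and Vehicle mice.

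None of the 10 genes differed between the groups beyond the spread between tumors. With limma's moderated test over all 13358 genes, 0 of the 10 passed at a Benjamini-Hochberg adjusted p under 0.05, as did 0% of all tested genes, and their adjusted p-values ran from 0.858 to 0.998. At an unadjusted p under 0.05 stood 0 of the 10, against 6.94% of all tested genes. In 0 of the 10 genes did the NMN values lie apart from the Vehicle values, against 3.05% of all tested genes. The log2 fold changes of NMN over Vehicle, on log2(TPM + 1), were above 0 in 5 genes and below 0 in 5, with a median of 0.01, beside a median of 0.00 over all tested genes. They ran from -0.20 for SPRED2 to 0.43 for DUSP5.

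**Figure D1:**
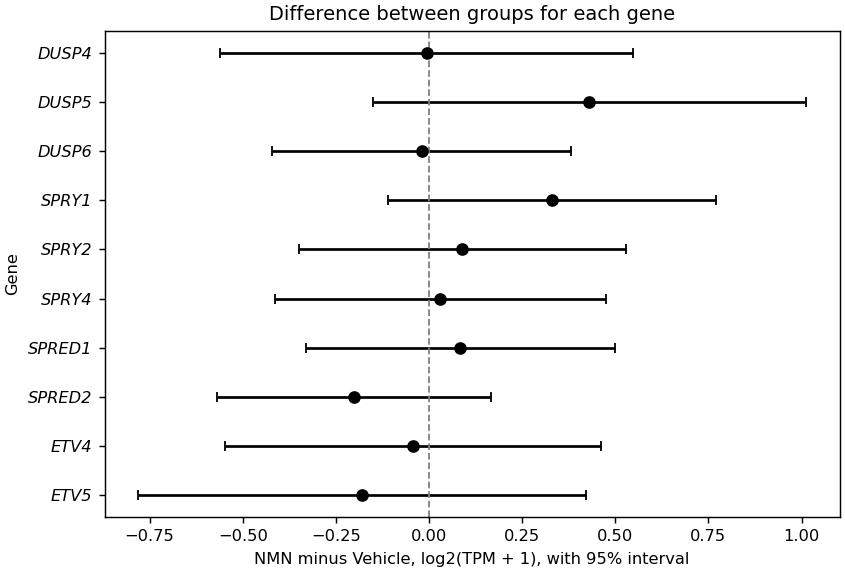
The x axis gives the difference NMN minus Vehicle in mean log2(TPM + 1) for each of the 10 genes on the y axis, with bars for the 95% interval of the limma fit (4 tumors per group). Every interval spans 0, and the estimates run from -0.20 to 0.43.

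Sequence around the transcription start was at hand from RefSeq (GRCh38.p14) for 6 of the 10 genes, in windows of 300 bases that reach from 250 bases before an annotated start to 50 after it. DUSP5, ETV4, ETV5 and DUSP4 had no entry. The first pair of windows below is shown because these genes had the most alike values across tumors, as described further on, and the second pair because each holds a match to an ETS motif, the kind of site that ETV4 and ETV5 bind. Capitals mark that match, and all sequences are on the strand of the gene.
DUSP6, chr12:89352452-89352751, minus strand: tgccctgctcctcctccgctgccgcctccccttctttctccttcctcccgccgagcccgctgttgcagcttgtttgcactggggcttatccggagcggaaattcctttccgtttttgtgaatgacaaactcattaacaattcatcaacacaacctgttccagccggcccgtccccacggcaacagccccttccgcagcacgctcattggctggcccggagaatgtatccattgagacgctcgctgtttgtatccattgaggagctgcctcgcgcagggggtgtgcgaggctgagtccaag
SPRY4, chr5:142324198-142324497, minus strand: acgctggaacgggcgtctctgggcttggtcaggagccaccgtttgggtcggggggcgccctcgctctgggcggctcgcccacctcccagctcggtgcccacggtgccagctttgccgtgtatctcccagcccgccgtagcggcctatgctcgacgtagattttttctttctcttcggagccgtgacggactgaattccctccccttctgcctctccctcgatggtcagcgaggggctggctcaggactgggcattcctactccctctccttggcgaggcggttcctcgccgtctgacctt
SPRY1, chr4:123398136-123398435, plus strand: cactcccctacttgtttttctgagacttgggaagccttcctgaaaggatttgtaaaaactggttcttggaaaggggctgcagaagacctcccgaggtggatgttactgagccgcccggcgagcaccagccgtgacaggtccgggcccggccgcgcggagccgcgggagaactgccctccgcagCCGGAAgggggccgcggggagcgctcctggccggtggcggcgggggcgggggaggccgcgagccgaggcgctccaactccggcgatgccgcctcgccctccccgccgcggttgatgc
SPRY2, chr13:80341077-80341376, minus strand: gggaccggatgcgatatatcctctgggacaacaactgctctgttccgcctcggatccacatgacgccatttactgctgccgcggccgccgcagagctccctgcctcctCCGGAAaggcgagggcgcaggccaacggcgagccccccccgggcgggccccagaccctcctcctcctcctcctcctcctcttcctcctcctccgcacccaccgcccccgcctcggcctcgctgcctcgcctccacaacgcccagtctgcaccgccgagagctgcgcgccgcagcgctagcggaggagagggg

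The ETS letters CCGGAA, or TTCCGG on the other strand, occurred once in that SPRY1 window, at -67 from the start, and once in the SPRY2 window, at -142, and in none of the other windows of the 6 genes. SPRY1, SPRY2 and SPRED2 had more than 1 window each. Over all 35116 windows of this length, 17.2% held the ETS letters. The AP-1 letters TGANTCA were in 1 window of SPRED2, with 2 matches, at -6 and 34 from an alternative start, against 7.71% of all windows. The cAMP response element TGACGTCA (1.85% of all windows) and the serum response element, by its CArG consensus (1.29%), were in none of the windows of these genes. Both strands were searched and no match overlapped another. The windows are small, and matches are a description of letters only.

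Among the phosphatases, DUSP6, which acts on ERK in the cytoplasm (chromosome 12, 89347232 to 89353271, minus strand), had the highest level of all 10 genes. Its TPM values were 28.3, 23.3, 16.2 and 29.8 in Vehicle 1 to 4 and 26.8, 20.5, 21.0 and 26.2 in NMN 1 to 4. All 4 NMN values lay within the Vehicle range. The means were 24.4 ± 6.11 TPM in Vehicle tumors and 23.6 ± 3.33 TPM in NMN tumors (SD, n = 4 each). The log2 fold change was -0.02 ± 0.18 (SE) (95% interval -0.42 to 0.38, limma, adjusted p = 0.996).

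DUSP5, a nuclear phosphatase selective for ERK (chromosome 10, 110497838 to 110511544, plus strand), had the largest log2 fold change of the 10 genes. Its levels were 7.52, 10.3, 5.27 and 5.58 TPM in Vehicle 1 to 4, and 13.9, 10.9, 10.5 and 5.43 TPM in NMN 1 to 4. NMN 1, NMN 2 and NMN 3 lay above all Vehicle tumors, Vehicle 2 close beneath them, and NMN 4 within the Vehicle range. The means were 7.17 ± 2.32 TPM in Vehicle and 10.2 ± 3.52 TPM in NMN tumors (SD, n = 4 each), a log2 fold change of 0.43 ± 0.27 (95% interval -0.15 to 1.01, limma, adjusted p = 0.860, exact permutation p = 0.229). Without NMN 4 the log2 fold change was 0.68, at an unadjusted limma p of 0.0119 and an adjusted p of 0.340, and without NMN 1 it was 0.27. The summed level of 19 skeletal muscle markers stood apart in the same 3 NMN tumors. It was 99.2 to 103 TPM in NMN 1 to 3, 854 TPM in NMN 4 and 583 to 3225 TPM in the Vehicle tumors. The parvalbumin gene PVALB was at 0 in all. Of 17 markers tested, 16 had the lower mean in NMN tumors. The other, MB, went the opposite way, at 44.3, 65.8, 52.9 and 23.6 TPM in NMN 1 to 4 and 12.2 to 32.7 TPM in Vehicle tumors. Most of the sum in NMN 1 to 3 came from MB and TNNI2 (23.7 to 41.15 TPM there). The part of these marker levels in the DUSP5 values was not tested.

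DUSP4, a nuclear phosphatase that acts on ERK and on the stress kinases (chromosome 8, 29333064 to 29350668, minus strand), differed more within the groups than between them. The values were 13.5, 11.1, 14.3 and 5.55 TPM in Vehicle 1 to 4 and 9.01, 9.77, 9.77 and 13.9 TPM in NMN 1 to 4. Vehicle 4 was the lowest of the 8 tumors, and all NMN values lay within the Vehicle range. The log2 fold change was -0.01 ± 0.25 (95% interval -0.56 to 0.55, limma, adjusted p = 0.998). Without Vehicle 4 it was -0.28, and without Vehicle 3 it was 0.13.

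None of the 3 Sprouty genes differed beyond the spread. Their means of log2(TPM + 1) were slightly higher in NMN tumors (for SPRY4 the mean TPM was not, at 5.49 in Vehicle and 5.47 in NMN tumors), a sign that turned for SPRY4 with quantile normalization and for SPRY2 with library weights. SPRY1 (chromosome 4, 123396795 to 123403760, plus strand) was at 8.43, 8.60, 6.53 and 5.0 TPM in Vehicle 1 to 4 and at 6.57, 10.8, 10.8 and 8.76 TPM in NMN 1 to 4. NMN 2, NMN 3 and NMN 4 lay above the Vehicle range, NMN 4 only by a small margin, and NMN 1 lay within it. The means were 7.14 ± 1.71 and 9.22 ± 2.001 TPM (SD, n = 4 each), with a log2 fold change of 0.33 ± 0.20 (95% interval -0.11 to 0.77) and the smallest adjusted p of the 10 genes (limma, adjusted p = 0.858, exact permutation p = 0.171). Without Vehicle 4 the value was 0.19 and without NMN 1 it was 0.47, and library weights gave 0.13.

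SPRY2 (chromosome 13, 80335976 to 80340951, minus strand) stood at 8.12, 8.43, 6.53 and 9.54 TPM in Vehicle 1 to 4 and at 6.29, 8.46, 8.11 and 12.9 TPM in NMN 1 to 4. The highest and the lowest of the 8 tumors, NMN 4 and NMN 1, were both in the NMN group. The log2 fold change was 0.09 ± 0.20 (95% interval -0.35 to 0.53, limma, adjusted p = 0.979), and -0.09 without NMN 4. SPRY4 (chromosome 5, 142310427 to 142326455, minus strand) stood at 5.19, 5.09, 3.64 and 8.04 TPM in Vehicle 1 to 4 and at 6.62, 5.10, 5.32 and 4.85 TPM in NMN 1 to 4. Its highest and lowest tumors, Vehicle 4 and Vehicle 3, were both in the Vehicle group. The log2 fold change was 0.03 ± 0.20 (95% interval -0.41 to 0.47, limma, adjusted p = 0.996), and -0.12 without Vehicle 3.

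SPRED2 (chromosome 2, 65310851 to 65432637, minus strand) had the lowest log2 fold change, and SPRED1 (chromosome 15, 38252326 to 38357249, plus strand) the lowest level of the 10 genes. SPRED2 was at 20.1, 16.1, 16.5 and 11.8 TPM in Vehicle 1 to 4 and at 13.1, 11.6, 14.6 and 15.7 TPM in NMN 1 to 4. Vehicle 1, Vehicle 2 and Vehicle 3 lay above all NMN tumors, and Vehicle 4 lay among them. The log2 fold change of SPRED2 was -0.20 ± 0.17 (95% interval -0.57 to 0.17, limma, adjusted p = 0.920). It was -0.33 without Vehicle 4 and -0.09 without Vehicle 1. SPRED1 was at 2.21, 1.41, 2.06 and 3.14 TPM in Vehicle 1 to 4 and at 1.97, 2.46, 2.21 and 2.75 TPM in NMN 1 to 4, all within the Vehicle range. Its log2 fold change was 0.08 ± 0.19 (95% interval -0.33 to 0.50, limma, adjusted p = 0.979), and -0.04 without Vehicle 2.

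The ETV genes had the widest spread among the Vehicle tumors together with DUSP4. ETV4 (chromosome 17, 43527844 to 43579620, minus strand) was at 10.3, 13.1, 18.8 and 23.9 TPM in Vehicle 1 to 4 and at 18.4, 12.3, 16.7 and 14.3 TPM in NMN 1 to 4. ETV5 (chromosome 3, 186046308 to 186110318, minus strand) was at 3.43, 3.65, 6.59 and 10.4 TPM in Vehicle 1 to 4 and at 4.34, 4.16, 4.93 and 5.64 TPM in NMN 1 to 4. For both genes Vehicle 4 and Vehicle 3 were the highest tumors, Vehicle 1 was the lowest, and all NMN values lay within the Vehicle range. The log2 fold changes were -0.04 ± 0.23 for ETV4 and -0.18 ± 0.27 for ETV5 (limma, adjusted p = 0.994 and 0.959), with intervals from -0.55 to 0.46 and from -0.78 to 0.42. Without Vehicle 4 they were 0.15 and 0.09. The repressor gene CIC had a log2 fold change of 0.00 ± 0.13, with 25.6 to 30.1 TPM in Vehicle and 22.0 to 32.7 TPM in NMN tumors.

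**Figure D2:**
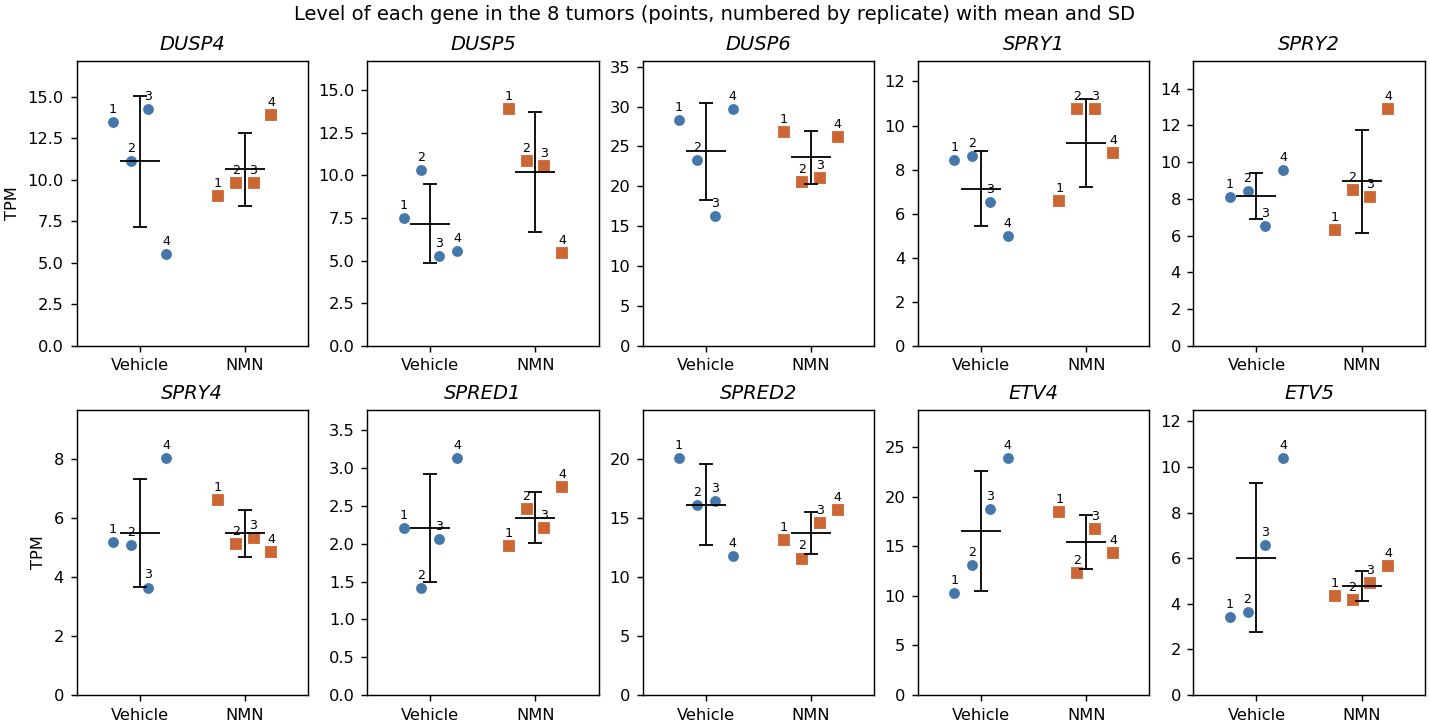
Each panel gives the TPM of 1 of the 10 genes (y axis, from 0) in the Vehicle and NMN groups (x axis). Points are tumors numbered by replicate, and the black lines are the mean and SD of 4 tumors. The groups overlap in every panel, and Vehicle 4 is the highest or lowest of the 8 tumors in 7 of the 10 genes.

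Levels per transcript length fell from DUSP6, at a mean of 24.0 TPM over the 8 tumors, through ETV4 (16.0), SPRED2 (14.9), DUSP4 (10.9), DUSP5 (8.68), SPRY2 (8.55), SPRY1 (8.18), SPRY4 (5.48) and ETV5 (5.39) to SPRED1 (2.28 TPM). Only the steps from DUSP6 to ETV4, from SPRED2 to DUSP4, from SPRY1 to SPRY4 and from ETV5 to SPRED1 exceeded the larger SD of the pair on the log2 scale. Among all tested genes, the mean level of DUSP6 stood at percentile 57.1 and that of SPRED1 at percentile 8.53.

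In each of the 8 tumors some of the 10 genes lay above their 8-tumor median and others did not, from 4 of the 10 above it in Vehicle 1, Vehicle 3, NMN 1 and NMN 2 to 7 in NMN 4. Deviations of single genes from their 8-tumor means of log2(TPM + 1) ran from -0.81 (DUSP4 in Vehicle 4) to 0.90 (ETV5 in Vehicle 4). Of the 45 pairs among them, DUSP6 and SPRY4 had the most alike profiles, with a mean absolute difference of 0.15 on the log2 scale over the 8 tumors, followed by ETV4 and ETV5 (0.18) and DUSP4 and SPRED2 (0.19). DUSP4 and SPRED2 lay on the same side of their means in 8 of 8 tumors. DUSP5 and ETV5 were the least alike pair (0.72) and lay on the same side in 1 of 8 tumors. These profiles come from the same 8 libraries and carry no test.

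**Figure D3:**
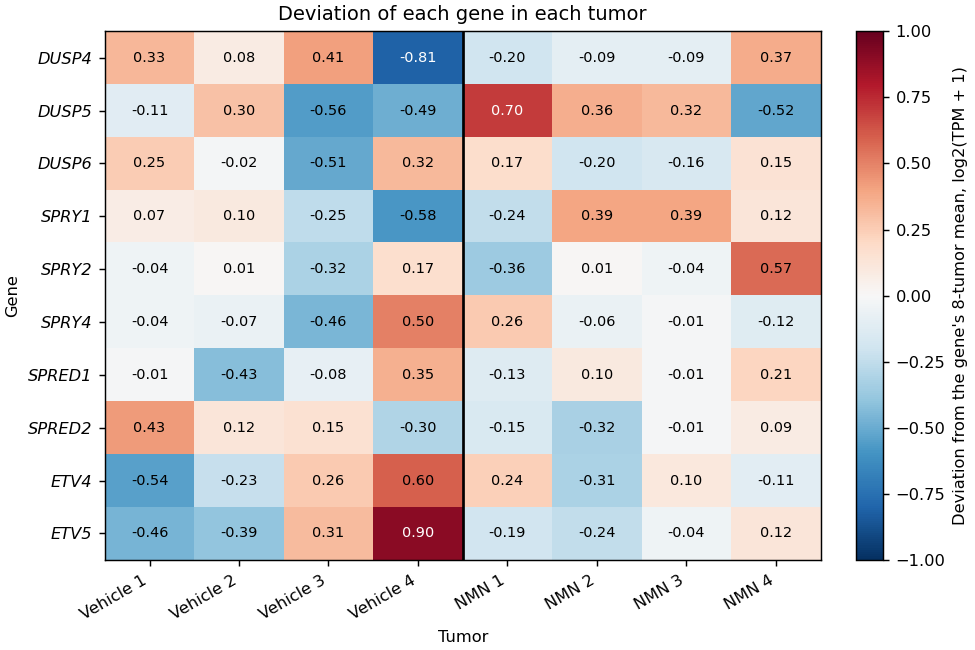
Columns are the 8 tumors and rows the 10 genes, and each cell gives the deviation of log2(TPM + 1) from the gene's mean over the 8 tumors (red above, blue below). The Vehicle 4 column holds the deepest blue (DUSP4, -0.81) and the deepest red (ETV5, 0.90), and no row is of 1 colour on each side of the line between groups.

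The spread between tumors was larger in the Vehicle group for 8 of the 10 genes, compared with 55.9% of all tested genes. The median SD of the 10 genes on log2(TPM + 1) was 0.39 in Vehicle and 0.22 in NMN tumors, beside 0.21 and 0.19 over all tested genes. For ETV5 the SD was 0.65 in Vehicle and 0.16 in NMN tumors, and only 8.80% of tested genes varied more over the 8 tumors. SPRY2 and DUSP5 were the 2 genes with the larger SD in the NMN group. Vehicle 4 was the highest tumor in 5 of the 10 genes (DUSP6, SPRY4, SPRED1, ETV4 and ETV5) and the lowest in 2 (DUSP4 and SPRY1), 7 in all, where 37.3% of all tested genes had an extreme in that tumor. Without Vehicle 4 the spread was larger in the Vehicle group for 5 of the 10 genes and for 49.0% of all genes, and the median SD in Vehicle tumors was 0.23. Breast epithelial markers moved in both directions in Vehicle 4. The basal keratin genes KRT5, KRT14 and KRT6A were highest of the 8 tumors there, at 6488, 6953 and 3672 TPM, whereas the luminal keratin genes KRT8, KRT18 and KRT19 were lowest, at 265, 376 and 288 TPM, as were EPCAM (91.0 TPM) and GATA3 (30.1 TPM). The sum over the 16 markers, carried by the basal keratins, was 23843 TPM in Vehicle 4, 11536 to 14391 TPM in the other Vehicle tumors and 12765 to 15570 TPM in NMN tumors. KRT8 also lay apart between the groups, at 265 to 542 TPM in Vehicle and 707 to 909 TPM in NMN tumors (limma, adjusted p = 0.221). These markers were named after their values were seen, and their part in the values of the 10 genes was not tested. The progesterone receptor gene PGR was at 0 in all tumors but 1.

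**Figure D4:**
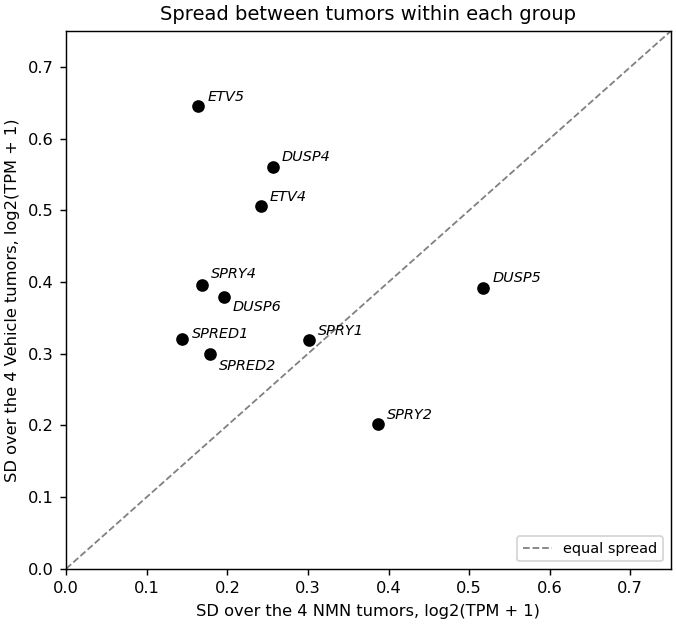
For each of the 10 genes the SD of log2(TPM + 1) over the 4 Vehicle tumors (y axis) is set against that over the 4 NMN tumors (x axis), with a dashed line of equal spread. ETV5 (0.65 against 0.16) lies farthest above the line, and DUSP5 and SPRY2 lie below it.

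The upstream and core genes of the pathway also gave no call. Of 15 receptors, ligands and receptor inhibitors tested, 0 passed and 2 stood at an unadjusted p under 0.05 with the higher mean in NMN tumors, where 4.79% of all tested genes did so. These were ERRFI1, a feedback inhibitor of EGFR, at 38.4 ± 8.39 TPM in Vehicle and 92.1 ± 27.1 TPM in NMN tumors (limma, adjusted p = 0.221), and the EGFR ligand gene TGFA, at 26.3 ± 3.41 and 31.7 ± 1.97 TPM (limma, adjusted p = 0.711). Without NMN 4 the adjusted p of ERRFI1 was 0.0206, and with library weights it was 0.046. The receptor genes EGFR, MET and AXL had log2 fold changes of -0.06 ± 0.14, -0.32 ± 0.17 and -0.37 ± 0.18. Of 13 adaptor, RAS and RAS regulator genes 0 passed, with a list median of 0.09. At an unadjusted limma p under 0.05 with the higher mean in NMN tumors stood 1, SOS1 (0.0463), again beside 4.79% of all tested genes. The RAS exchange factor gene SOS1 had a log2 fold change of 0.40 ± 0.18, the docking protein gene GAB1 one of 0.30 ± 0.15, HRAS and the adaptor gene SHC1 both one of -0.21 ± 0.11, and NF1 one of 0.13 ± 0.15.

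Of the 10 genes of RAF, MEK, ERK and their scaffolds, 0 passed and 0 stood at an unadjusted p under 0.05, and the list median was 0.07. The ERK gene MAPK3 was at 142 ± 7.08 TPM in Vehicle tumors and at 151 ± 10.8 TPM in NMN tumors, above the level of any of the 10 feedback and output genes. The kinase gene ARAF and the MEK gene MAP2K1 had log2 fold changes of -0.14 ± 0.12 and 0.12 ± 0.09. Of 12 kinases and factors downstream of ERK 0 passed, with a median of 0.04. The ERK-activated kinase gene MKNK2, at 0.36 ± 0.16, stood at an unadjusted limma p of 0.0481, and RPS6KA3, ETS2 and RPS6KA1 had log2 fold changes of -0.29 ± 0.16, 0.19 ± 0.16 and 0.16 ± 0.14.

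Phosphatases outside the 10 genes gave a like picture. Of 8 tested, 0 passed and 0 stood at an unadjusted p under 0.05. With library weights 3 did so, without NMN 4 2 and without Vehicle 2 1, all higher in NMN tumors. In these fits 1492, 1276 and 801 of all 13358 tested genes stood at that p in either direction, against 927 in the main fit. The mean of log2(TPM + 1) was higher in NMN than in Vehicle tumors for 6 (for 5 under median-of-ratios scaling or quantile normalization), and the median was 0.06. DUSP1, an immediate early phosphatase that prefers the stress kinases, was at 55.5, 163, 49.6 and 44.0 TPM in Vehicle 1 to 4 and at 113, 95.1, 186 and 82.7 TPM in NMN 1 to 4. All NMN tumors lay above Vehicle 1, 3 and 4, and Vehicle 2 lay among them. The log2 fold change of DUSP1 was 0.76 ± 0.37 (limma, adjusted p = 0.761), and DUSP2, DUSP9 and DUSP16 had log2 fold changes of 0.47 ± 0.26, 0.28 ± 0.27 and 0.10 ± 0.11. Of the other members of the Sprouty, SPRED and PEA3 families, SPRED3 was tested (0.28 ± 0.20), and SPRY3 and ETV1 lay under the filter, at 0.66 to 1.09 TPM.

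Other genes that ERK is known to induce had more members with a low p. Of 13 tested, 0 passed, but 6 stood at an unadjusted p under 0.05, all with the higher mean in NMN tumors, beside 4.79% of all tested genes and 0 of the 10 feedback and output genes. With median-of-ratios scaling, quantile normalization or the replicate block, 4 genes were higher and 1, CCND1, lower at that p. In these fits 1126, 1154 and 1094 of all 13358 tested genes stood at that p in either direction, against 927 in the main fit. The difference between the lists was not tested, and the list median was 0.34. This list, like the other pathway lists, was chosen with earlier results of these data known. The count of 6 may thus reflect in part how the list was made, and it is no test of ERK output. The 6 genes were PLAUR, FOS, IER3, EGR1, EGR3 and IL1RAP, and many of them answer to signals other than ERK as well. The urokinase receptor gene PLAUR had a log2 fold change of 0.68 ± 0.16, the AP-1 gene FOS one of 1.57 ± 0.42, the survival gene IER3 one of 0.95 ± 0.26 and the zinc finger factor gene EGR1 one of 0.84 ± 0.32 (limma, adjusted p = 0.268, 0.341, 0.348 and 0.584). Without NMN 1, NMN 2 or NMN 3 the count was 5, 3 and 3, and without Vehicle 1 it was 3. Without NMN 4 it was 6 higher and 1 lower, with FOS at an adjusted limma p of 0.0199. The number of all tested genes at an unadjusted p under 0.05 moved as well. It was 663, 922 and 568 without NMN 1, NMN 2 or NMN 3, 1201 without Vehicle 1 and 1276 without NMN 4. NMN 4 lay within the Vehicle range for FOS (36.2 TPM) and EGR1 (49.9 TPM), within it for IER3 (114 TPM), below it for IL1RAP (36.4 TPM), and above it for PLAUR (36.1 TPM) and EGR3 (3.96 TPM). NMN 4 was also the NMN tumor whose summed muscle marker level lay within the Vehicle range, as given for DUSP5 above. Of 5 tested fibroblast markers 3, the collagen genes COL1A1, COL1A2 and COL3A1, were lower in NMN tumors at an unadjusted p under 0.05. Over all tested genes 6.94% stood at that p in either direction. Sums over the 10 listed fibroblast markers, carried by these collagen genes, were 121 to 237 TPM in NMN tumors and 192 to 292 TPM in Vehicle tumors. DCN, LUM, PDGFRA, PDGFRB and THY1 were under 1 TPM in all 8 tumors. The part of these markers in the 6 genes was not tested.

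Of the other 7 genes of that list, JUNB, FOSB, EMP1 and FOSL1 had log2 fold changes above 0 (0.44, 0.33, 0.19 and 0.25), and PHLDA1, CCND1 and EPHA4 below 0 (EPHA4 at -0.11), none at an unadjusted p under 0.05. PHLDA1, a pleckstrin homology protein, was at 11.6, 26.1, 9.78 and 34.1 TPM in Vehicle 1 to 4 and at 15.97, 15.2, 18.7 and 16.4 TPM in NMN 1 to 4. All NMN values lay between the lower and the upper pair of Vehicle tumors, with a log2 fold change of -0.11 ± 0.32 (limma, adjusted p = 0.984). CCND1, the cyclin D1 gene, was at 171 ± 35.4 TPM in Vehicle and 132 ± 30.5 TPM in NMN tumors, with a log2 fold change of -0.38 ± 0.18 (limma, adjusted p = 0.741). FOSL1, an AP-1 gene described here after its values were seen, as were JUNB, FOSB, EMP1 and EPHA4, was at 12.9, 62.6, 25.5 and 107 TPM in Vehicle 1 to 4 and at 34.7, 74.2, 54.5 and 32.5 TPM in NMN 1 to 4. Vehicle 4 was thus the highest Vehicle tumor for PHLDA1, FOSL1 and CCND1 as for ETV4 and ETV5, but Vehicle 2, high for PHLDA1 and FOSL1, was low for both ETV genes.

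**Figure D5:**
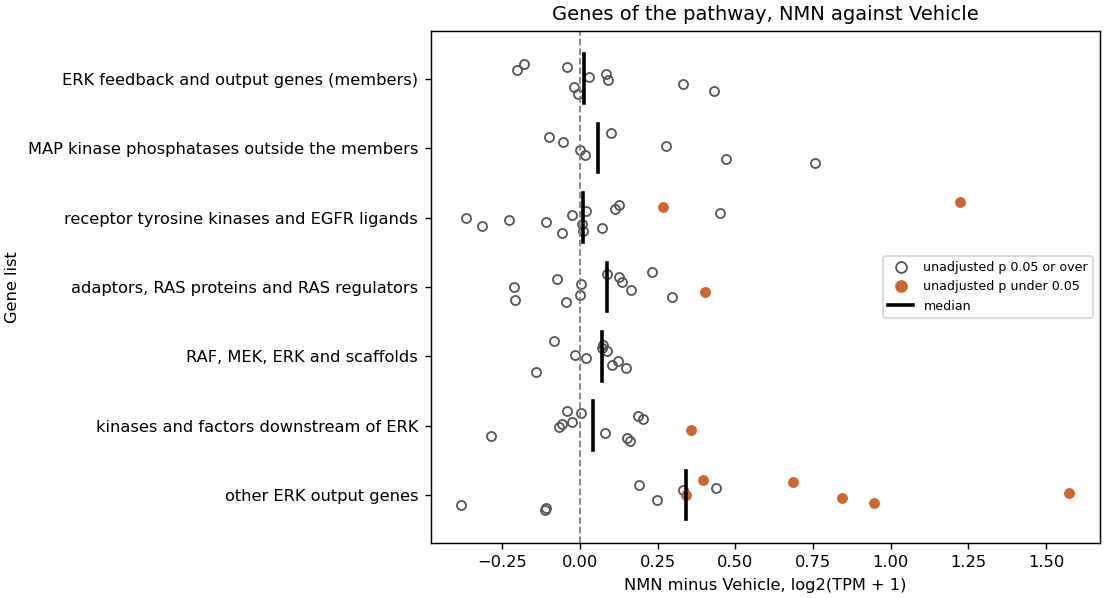
The x axis gives the difference NMN minus Vehicle in mean log2(TPM + 1), and each row of points is 1 list of pathway genes, with a black bar at its median. Filled points have an unadjusted limma p under 0.05: 0 of the 10 feedback and output genes and 6 of 13 other ERK output genes. The lists were chosen with earlier results of these data known.

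Genes with the most alike profile over the 8 tumors were sought among tested genes that vary at least as much, by the mean absolute difference of deviations on the log2 scale. For the mean of the 10 genes these were NRBP1, SPG21 and RAB10, at differences of 0.03 to 0.04. For the mean of ETV4 and ETV5 they were PPP4R4, NCS1 and HEG1, at 0.09 to 0.10. NCS1, a neuronal calcium sensor, was at 13.6, 15.02, 21.7 and 35.1 TPM in Vehicle 1 to 4 and at 14.1 to 21.0 TPM in NMN tumors. The nearest genes were JAZF1, CNOT6L and CHMP2A for the phosphatases, SOCS5, TMEM120A and ZNF460 for the Sprouty genes, and ZADH2, RMDN3 and SUPT7L for the SPRED genes, at 0.04 to 0.08. Over 8 tumors such likeness is a description only.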

How the data were processed

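Whole-tumor RNA of 8 tumors (4 NMN, 4 Vehicle) was analysed from the table of TPM values per gene deposited by the authors. Per the submitters' processing notes, the tools were RSEM 1.2.8, Bowtie2 2.2.5 and HISAT2 2.1.0, in roles not stated, with build GRCh38.p13. Strandedness and how mouse reads were handled are not given in the sources used here, and any value may hold reads from mouse tissue. Each library sums to 1000000 TPM, 16451 to 16662 genes per library were above 0, and no 2 libraries were identical. TPM keeps no depth, so the depth is unknown.

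Genes with at least 1 TPM in at least 4 libraries were tested on log2(TPM + 1) with limma 3.58.1 in R 4.3.3 (mean-variance trend, group as the only term, two-sided, Benjamini-Hochberg over all tested genes at 0.05). Fold changes on this scale understate those of low genes and are given ± SE. Exact two-sided permutation tests of 4 against 4 cannot go below p = 0.0286. The code was tested on simulated data. Gene positions are from GENCODE 29 (GRCh38), and promoter windows from RefSeq. Each pathway list (not the marker lists) names up to 4 genes with the smallest p, and EGFR, DUSP1, PHLDA1, CCND1, NF1 and MAPK3 always; 2 further genes that this rule names are not reported here. The nearest profiles are the 3 genes per profile with the smallest difference. The 10 genes, the lists and the rules were chosen with earlier results of these data known. Alternatives were pseudocounts of 0.1 and 5, other filters, scalings and variance models, library weights, a replicate block and each library left out. The spread without each library was added after the data were seen.

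In bulk tumors fewer cells of a type and less RNA per cell cannot be told apart. Of the marker lists, 5 of 10 fibroblast, 5 of 7 endothelial, 1 of 7 myeloid and 2 of 6 adipocyte markers were under 1 TPM in all tumors. Sums were 192 to 292 (Vehicle) and 121 to 237 TPM (NMN) for the fibroblast markers, carried by COL1A1, COL1A2 and COL3A1. They were 3.66 to 5.67 and 5.40 to 7.32 for the endothelial markers, where KDR was higher in every NMN tumor and TEK lower. For the myeloid markers they were 54.3 to 78.6 and 51.4 to 92.2. The adipocyte sums, 10.9 to 99.96 and 16.0 to 217, varied mainly with FABP4 (3.19 to 92.2 and 8.07 to 212 TPM). LPL was lower in every NMN tumor (0.72 to 1.30 and 0.17 to 0.51 TPM).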

Additional observations from a re-analysis of the deposited data

Results flagged for a closer look

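In 30 groups of 4 tumors (10 genes and 5 mean profiles, in each treatment group) 4 held a tumor whose gap to the nearest of the others was larger, as a share of the group's range, than Dixon's limit for 4 values, where chance gives about 1 in 20. The mean profiles are averages of the same 10 genes. The groups are thus not independent, and 4 of 30 cannot be set against that rate. DUSP4 was at 13.9 TPM in NMN 4, against 9.01 to 9.77 TPM in the other NMN tumors. The mean deviation of the 3 phosphatase genes was 0.22 in NMN 1, above the other NMN tumors. For the 3 Sprouty genes it was -0.34 in Vehicle 3, below the other Vehicle tumors, and for ETV4 and ETV5 it was -0.28 in NMN 2, below the other NMN tumors.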

How the results depend on the processing

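Under 10 other settings and with each of the 8 tumors left out, 0 of the 10 genes passed. Over all genes the number that passed was 0 except for 54 with library weights, 2 with a replicate block, and 0 to 54 with 1 tumor left out (54 without NMN 4, 1 without Vehicle 3). The median log2 fold change of the 10 genes ran from -0.02 to 0.06 under the other settings and from -0.043 (without NMN 4) to 0.15 (without Vehicle 4) with 1 tumor left out, and was 0.076 without Vehicle 1. The sign turned for SPRY4 with quantile normalization (-0.0048), for DUSP4 with a pseudocount of 0.1 (0.00040), and with library weights for DUSP6 (0.087), SPRY2 (-0.068) and ETV4 (0.16). With 1 tumor left out the ranges were -0.28 to 0.13 for DUSP4, -0.19 to 0.084 for DUSP6, -0.086 to 0.22 for SPRY2, -0.12 to 0.20 for SPRY4, -0.044 to 0.22 for SPRED1, -0.23 to 0.15 for ETV4 and -0.36 to 0.091 for ETV5. The cause was not tested. DUSP5 (0.27 to 0.68), SPRY1 (0.19 to 0.47) and SPRED2 (-0.33 to -0.09) kept their sign in these fits. DUSP5 stood at an unadjusted limma p under 0.05 with library weights (0.0191), without Vehicle 2 (0.0486) and without NMN 4 (0.0119). SPRY1 did so without NMN 1 (0.0438). Over all 13358 genes, 1492, 801, 1276 and 663 stood at that p in those fits, in this order, against 927 in the main fit. At the filter of 5 TPM, SPRED1 and ETV5 were not tested. Same-numbered tumors shared no common deviation (correlations over tested genes of 0.03, 0.00, -0.03 and -0.12), so the replicate block joins tumors that share only a number. It gave DUSP5 an unchanged 0.43 (limma, adjusted p = 0.645). Changes within even the narrowest 95% intervals, those of SPRED2 (-0.57 to 0.17) and DUSP6 (-0.42 to 0.38), could not be resolved with 4 tumors per group. For DUSP5 (-0.15 to 1.01) and ETV5 (-0.78 to 0.42) the intervals were wider. The intervals are not adjusted for the 13358 genes tested.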
